A study of Mus musculus with 21 samples.

Results

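The expression difference between CD24hi and CD24lo Mist1+ cells of the mouse small intestine after doxorubicin is described here. It rests on 4 arrays of the 21 in the series, those titled as doxorubicin samples, with 2 CD24hi and 2 CD24lo replicates. In every sorted group TdTomato+ cells, labelled Mist1+, were gated on the surface protein CD24 and collected by flow sorting. All groups thus share the reporter and differ in CD24 and in condition. The series holds 5 conditions for each of the 2 fractions, namely untreated, Lgr5-ablated (titled DT), irradiated with 10 Gy, treated with doxorubicin, and NICD-expressing, each with 2 arrays, plus 1 whole-intestine array that was not analysed here. Untreated and irradiated cells served as the comparison for the doxorubicin pair. The dose, route and time of doxorubicin, the age and strain of the mice, the number of mice behind a replicate and the driver of the reporter are not given in the sources used here. Replicates may therefore be separate animals, pools or technical repeats, and p-values measure the spread between these arrays.

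Mist1, encoded by Bhlha15, is a transcription factor of secretory cells that builds the machinery for granule release. CD24 marks Paneth cells and other secretory cells of the crypt most strongly, with lower levels on crypt stem cells and other epithelium. Doxorubicin poisons topoisomerase II and breaks DNA. In the intestinal crypt such damage activates p53, stops or kills cycling cells, and is followed by regrowth from surviving crypt cells.

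Expression values are microarray signals given as log2(signal + 16), and a difference between fractions is always CD24hi minus CD24lo on that scale with its standard error (SE). The scale understates changes of dim genes. Each gene is read by 1 probe set, and no level is compared between genes. The replicates correlated at 0.979 in CD24lo and 0.985 in CD24hi cells over the genes tested. On the first principal component of the 20 sorted arrays, which held 36.9% of the variance, the CD24lo doxorubicin arrays lay at -60.9 and -65.4, lower than every other array, and the CD24hi arrays at 17.9 and 15.6. Median signals were 149 and 127 in CD24lo and 143 and 144 in CD24hi, and the 3′ to 5′ actin ratio, a sign of RNA quality, was 1.34 to 1.40 on the 4 arrays. Of 11854 genes tested, 3351 passed an adjusted p of 0.05 by limma with Benjamini-Hochberg adjustment, which is 28.3%. Of these, 2059 were higher in CD24hi cells (17.4%) and 1292 lower (10.9%), and the median difference of all genes was 0.11. The higher genes made up 61.4% of the calls, against 50.9% when each array was centred on its 75th percentile, which moved the median difference of all genes by -0.10. For 8804 genes (74.3%) the 2 CD24hi arrays did not overlap the 2 CD24lo arrays, 5140 of them higher (43.4%) and 3664 lower (30.9%), so separation of the 4 arrays alone was common. Without any 1 of the 4 arrays 1726 to 2022 genes passed.

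The gating gene and the reporter's namesake were both higher in the CD24hi cells. Cd24a, the gene of the sorting marker, read 13.07 and 13.12 on the CD24lo arrays and 14.23 and 14.16 on the CD24hi arrays, a difference of 1.10 ± 0.18 (SE, n = 2 arrays per fraction, limma adjusted p = 3.51e-04). That is a 2.15-fold higher level, and as the gated marker it is no finding. Bhlha15 read 8.15 and 7.83 in CD24lo and 10.91 and 10.82 in CD24hi cells, a difference of 2.88 ± 0.26 or 7.34-fold (adjusted p = 3e-06). The reporter-positive CD24lo cells thus held far less Bhlha15 RNA than the CD24hi cells, and both pairs stood clear of each other. Of 12 genes described whatever their result, 6 rose with CD24 and 6 did not pass the test. Those short of it were Atoh1, the secretory lineage selector (0.01 ± 0.20), Lyz1, Paneth lysozyme (-0.54 ± 0.28), Muc2, the goblet mucin (-0.27 ± 0.26), Chga, the enteroendocrine granin (-0.48 ± 0.65), Cdkn1a, the p53-driven cell cycle inhibitor (-0.03 ± 0.29), and Hes1, a Notch target (0.33 ± 0.34). Atoh1 read between 12.82 and 12.89 on all 4 arrays. Among probe sets that passed the signal filter, a further one of Lyz1, Cdkn1a and Lrig1 gave the opposite sign in the doxorubicin gap to the one used. None did for the other named genes of the 68 with several such probe sets. This covers the sign of that gap only, not its size or the differences of gaps. Dimmer probe sets that failed the filter also gave the opposite sign for some genes, among them Top2a, Sox9, Sox4 and Neurog3.

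**Figure D1:**
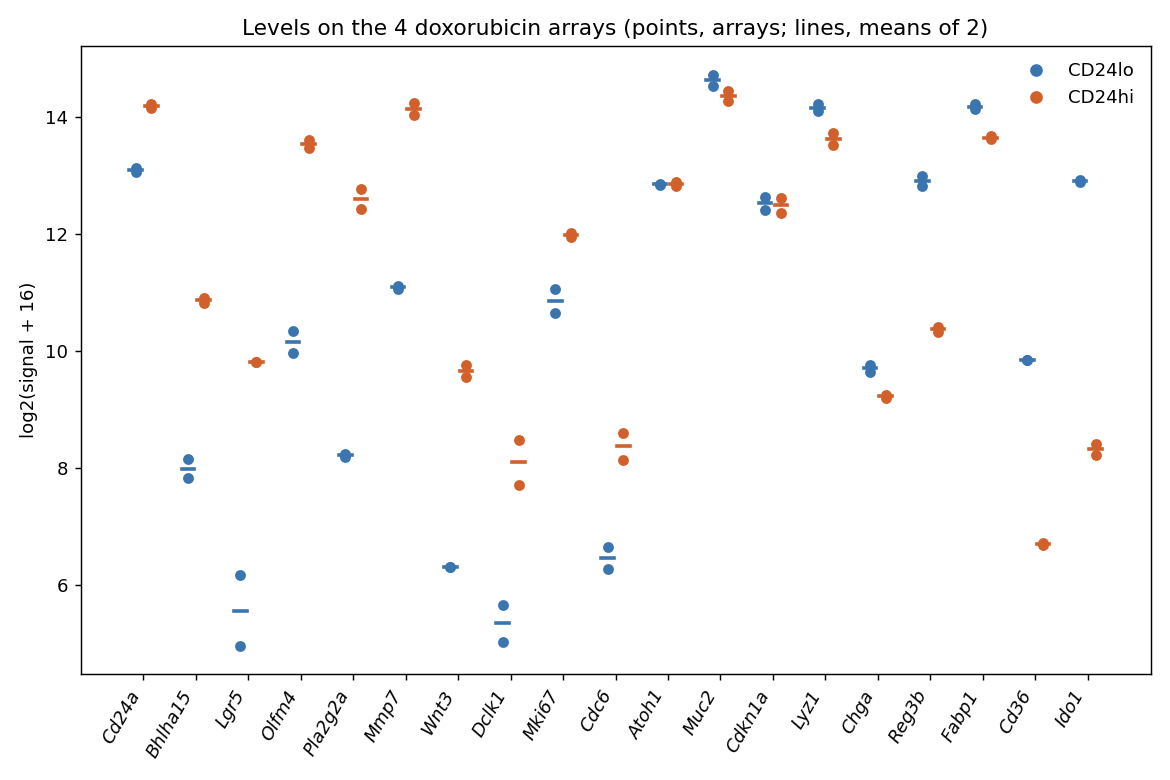
Levels on the 4 doxorubicin arrays for 19 genes named or listed here (x axis), as log2(signal + 16) on the y axis; points are arrays, blue for CD24lo and orange for CD24hi, and lines are means of 2. Lgr5, Olfm4, Pla2g2a and Mmp7 stand higher in CD24hi cells on both arrays, Atoh1 sits between 12.82 and 12.89 on all 4, and Cd36 and Ido1 stand lower.

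Crypt base stem cell genes lay on the CD24hi side. Of 17 tested (18 listed), 14 were higher in CD24hi cells, 0 lower, with a median difference of 1.90. In untreated mice 16 of the 17 were called higher and after irradiation 11, each with a median of 1.29. Among all genes 17.4% were higher after doxorubicin, 7.51% in untreated mice and 7.53% after irradiation. Lgr5, the receptor that defines crypt base columnar stem cells, read 6.16 and 4.96 in CD24lo and 9.82 and 9.81 in CD24hi cells, a difference of 4.25 ± 0.56 (adjusted p = 7.52e-05). Both CD24lo values lay below the median signal of their arrays, so the size of this difference depends on the added 16 and no fold is given. A further Lgr5 probe set that passed the signal filter gave a smaller difference of 1.72. Olfm4, a secreted glycoprotein of stem cells, read 10.33 and 9.96 against 13.47 and 13.60, a difference of 3.39 ± 0.31 (adjusted p = 2.98e-06). For both genes the CD24hi replicates lay close together and above both CD24lo arrays. Msi1, an RNA-binding protein of progenitors, was higher by 2.94 ± 0.37, and Sox9, a crypt transcription factor, by 2.74 ± 0.37. Tnfrsf19 (0.36), Prom1 (0.36) and Rnf32 (0.51) did not pass. Leaving out 1 of the 4 arrays kept 13 or 14 of the calls.

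The Wnt target and Eph group, which responds to or positions cells by the crypt's Wnt signal, had 8 of 14 tested members higher and 0 lower. Its median was 0.77, and 17.4% of all genes were higher. Untreated cells had 10 of the 14 called higher and 1 lower (median 1.34), and irradiated cells 7 and 1 (median 0.77). Axin2, Znrf3, Rnf43 and Tnfrsf19 are listed both here and among the crypt base stem cell genes. Ephb3, a receptor that keeps Paneth cells at the crypt base, read 6.56 and 6.21 in CD24lo and 10.15 and 9.71 in CD24hi cells, a difference of 3.55 ± 0.43 (adjusted p = 3.09e-05). Znrf3, a ligase that removes Wnt receptors, was higher by 2.04 ± 0.23, Cd44, an adhesion receptor, by 1.98 ± 0.33, and Axin2, a feedback inhibitor, by 1.90 ± 0.23. Genes proposed to mark reserve stem cells had 4 of 6 members higher: Lrig1, a brake on ErbB receptors (1.60 ± 0.23, with 1.82 and -0.0116 from its other 2 probe sets), Mex3a, an RNA-binding protein (1.12 ± 0.32), Hopx, an atypical homeodomain protein (0.81 ± 0.30), and Bmi1, a Polycomb subunit (0.77 ± 0.24). Except for Lrig1, each of these lost its call in 3 of the 4 fits that left out an array, with adjusted p up to 0.356.

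Paneth cell genes were listed as antimicrobial products and as other genes. In the group of other Paneth genes 10 of 12 tested members were higher and 0 lower, with a median of 2.68. Among all genes 17.4% were higher. The 10 include Cd24a, which as the gated marker is no finding, here or in the other conditions. In untreated mice 8 were called higher and after irradiation 9, with 0 lower in both, against 7.51% and 7.53% higher among all genes. Habp2, a serine protease, read 7.84 and 7.12 in CD24lo and 12.23 and 12.06 in CD24hi cells, a difference of 4.67 ± 0.34 (adjusted p = 3.95e-07). Pnliprp2, a lipase, differed by 4.50 ± 0.35 and Nupr1, a stress-linked chromatin protein, by 3.15 ± 0.27. Mmp7, the protease that activates mouse α-defensins, read 11.07 and 11.12 against 14.23 and 14.04, a difference of 3.04 ± 0.25 (adjusted p = 1.49e-06). All 4 genes were separated by more than 2 log2 units between the nearest arrays of the fractions.

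Of 8 antimicrobial Paneth genes tested (18 listed), 4 were higher and 1 lower, against 17.4% and 10.9% of all genes. Pla2g2a, a bactericidal phospholipase, read 8.24 and 8.19 in CD24lo and 12.76 and 12.43 in CD24hi cells, a difference of 4.38 ± 0.42 (adjusted p = 4.16e-06). Defa3, an α-defensin from a family of near-identical copies whose reads a probe set may not tell apart, was higher by 1.16 ± 0.32, and Lyz2 by 0.87 ± 0.28. Reg3b, a C-type lectin made by several epithelial cell types, ran the other way, at 13.00 and 12.81 in CD24lo and 10.33 and 10.41 in CD24hi cells (-2.54 ± 0.33, adjusted p = 7.25e-05). Without 1 array the antimicrobial count of 4 fell to 2 (without CD24lo replicate 1, CD24lo replicate 2 or CD24hi replicate 1) or 1 (without CD24hi replicate 2), and it was 2 after 75th percentile centring. Among ligands that the epithelium supplies to stem cells, 2 of 11 were higher and 2 lower, against 17.4% and 10.9% of all genes. Wnt3, the Paneth cell Wnt, read 6.32 and 6.31 in CD24lo and 9.56 and 9.77 in CD24hi cells (3.35 ± 0.53, adjusted p = 3.28e-04), and Egf was higher by 2.07 ± 0.24. Il33, an alarm cytokine, was lower at -2.52 ± 0.61, and Btc, another EGF receptor ligand, at -0.56 ± 0.19, the latter short of the threshold in every fit that left out an array.

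The remaining secretory lineages are given by cell type, against 17.4% higher and 10.9% lower among all genes. Tuft cell genes had 6 of 15 tested members higher and 0 lower, with a median of 1.20. In untreated mice 5 were called higher and after irradiation 6. Dclk1, a tuft cell kinase, read 5.03 and 5.66 in CD24lo and 7.71 and 8.48 in CD24hi cells (2.75 ± 0.45, adjusted p = 3.78e-04). Sh2d6 differed by 3.38 ± 0.51, Rgs13, a regulator of G protein signalling, by 2.63 ± 0.49 and the taste channel Trpm5 by 2.54 ± 0.50. Goblet cell genes had 1 of 19 members higher and 6 lower. Fer1l6, a ferlin, read 12.81 and 12.82 in CD24lo and 10.36 and 10.53 in CD24hi cells (-2.37 ± 0.23, adjusted p = 3.79e-06). Capn9, a calpain of the gut, was lower at -1.46 ± 0.20, Bcas1 at -1.38 ± 0.20 and S100a6, a calcium-binding protein, at -1.38 ± 0.28. The goblet median of -0.28 came to -0.05 after quantile normalization, where 3 members were higher and 6 lower.

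Enteroendocrine transcription factors and serotonin genes had 6 of 16 members higher and 1 lower. Nkx2-2, which directs endocrine subtypes, read 5.84 and 5.85 in CD24lo and 9.35 and 9.32 in CD24hi cells (3.49 ± 0.40, adjusted p = 1.94e-05). Neurog3, the endocrine progenitor factor, was higher by 1.71 ± 0.50 and Mnx1 by 1.66 ± 0.39, and Ddc, the decarboxylase that makes serotonin and dopamine, was lower at -1.78 ± 0.45. Neurog3 lost its call in 3 of the 4 fits that left out an array. Without 1 array the count of 6 fell to 3, or to 2 without CD24hi replicate 2. Among 19 hormone and granin genes 2 were higher, Iapp (3.65 ± 0.41) and Sst, somatostatin (2.20 ± 0.53), and 1 lower, Nts, neurotensin, which read 7.63 and 7.71 in CD24lo and 6.49 and 4.62 in CD24hi cells (-2.12 ± 0.47). Both hormone shares were below those of all genes, 17.4% higher and 10.9% lower. Of 16 secretory transcription factors 5 were higher and 0 lower, led by Bhlha15, then Pou2f3, the tuft cell factor (1.93 ± 0.46), and Sox4 (1.25 ± 0.39). That count was 2 without CD24lo replicate 2 or CD24hi replicate 1.

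Enterocyte genes lay on the CD24lo side nearly without exception. All 14 tested brush border and digestive genes (17 listed) were lower in CD24hi cells, with a median of -2.01. In untreated mice 8 of them were called lower and after irradiation 10. Among all genes 10.9% were lower after doxorubicin, 6.87% in untreated mice and 8.23% after irradiation. Enpp3, an ectonucleotidase, read 12.52 and 12.43 in CD24lo and 10.08 and 9.91 in CD24hi cells (-2.48 ± 0.23, adjusted p = 3.3e-06). Treh, trehalase, was lower at -2.87 ± 0.66, the peptidases Ace at -2.64 ± 0.46 and Mme at -2.50 ± 0.79. Mme was short of the threshold in every fit that left out an array. Of 17 fat-handling genes 16 were lower, with a median of -1.81. In untreated mice 15 were called lower and after irradiation 14. Cd36, a fatty acid receptor, read 9.85 on both CD24lo arrays and 6.72 and 6.68 on the CD24hi arrays (-3.15 ± 0.71, adjusted p = 3.93e-03). Apoc3, an apolipoprotein of secreted fat particles, was lower at -2.92 ± 0.54, Mogat2, an enzyme of fat resynthesis, at -2.75 ± 0.50 and Npc1l1, the cholesterol importer, at -2.67 ± 0.29. Nutrient transporters had 10 of 13 members lower and 1 higher, against 9 lower and 1 higher both in untreated and in irradiated mice. The proline transporter Slc6a20a was lower at -2.86 ± 0.60, the peptide transporter Slc15a1 at -2.71 ± 0.48 and the glucose transporter Slc2a2 at -2.67 ± 0.79, while the amino acid transporter Slc43a1 was higher by 2.38. Slc2a2, like Mme, was short of the threshold in every fit that left out an array. Xenobiotic enzymes had 16 of 21 members lower and 1 higher. Lower were Cyp3a11 (-2.85 ± 0.45) and Cyp2b10 (-2.68 ± 0.40), cytochromes P450, and Gsta4, a glutathione transferase (-2.82 ± 0.40). Untreated cells had 13 of the 21 called lower and irradiated cells 16, with 0 higher in both. In each of the digestive, fat-handling, transporter and xenobiotic lists 0 members passed the test of a difference between gaps, against untreated or irradiated mice. Without CD24lo replicate 2 the digestive count was 8 and the xenobiotic count 9, and without CD24hi replicate 1 the xenobiotic count was 8.

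**Figure D2:**
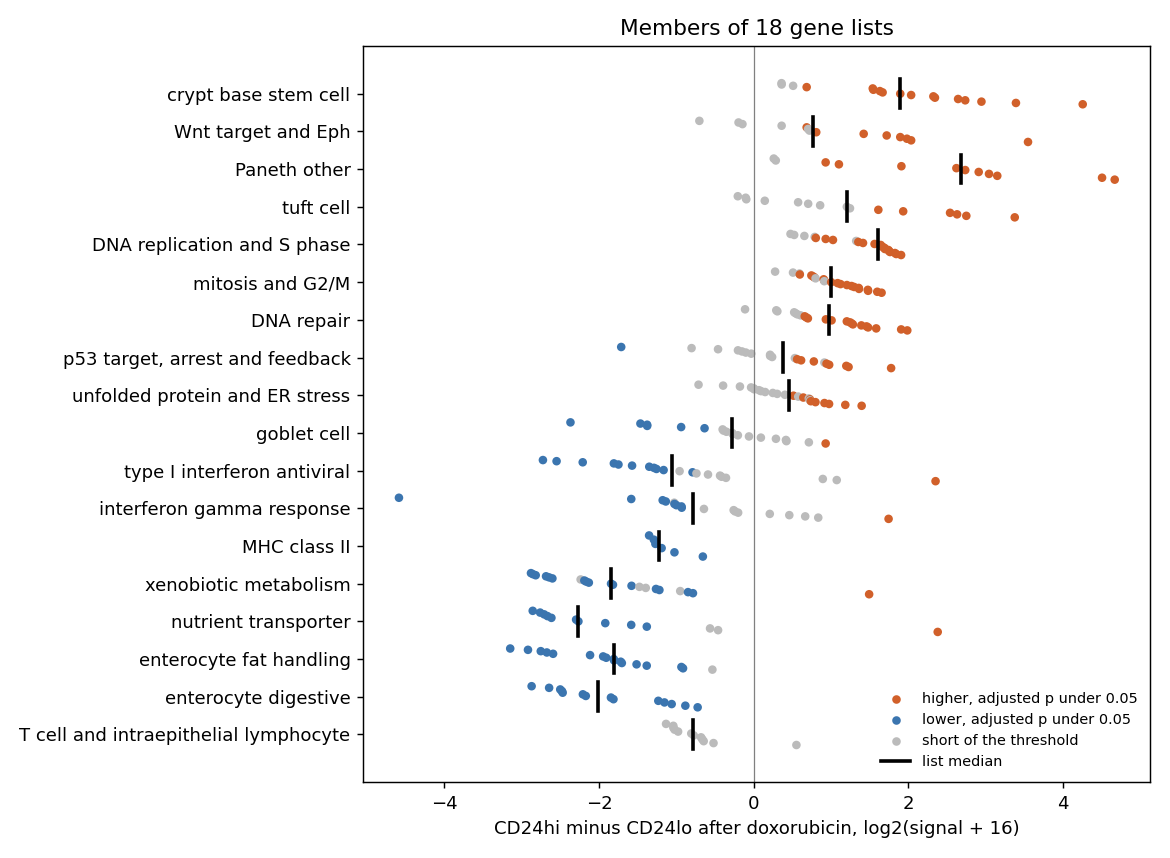
CD24hi minus CD24lo after doxorubicin (x axis, log2(signal + 16)) for every tested member of 18 gene lists (y axis); each point is a gene, orange where higher and blue where lower at an adjusted p under 0.05, grey where short of it, and the black bar is the list median. Stem, other Paneth and cell cycle lists lie to the right, with medians of 1.90, 2.68, 1.60 for S phase and 1.002 for mitosis, and enterocyte lists to the left.

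Cell cycle genes were higher in CD24hi cells after doxorubicin. Of 22 genes of DNA replication and S phase 17 were higher and 0 lower, with a median of 1.60, against 17.4% higher among all genes. Of 23 genes of mitosis and G2/M 18 were higher and 0 lower, with a median of 1.002, and of 22 DNA repair genes 15 were higher and 0 lower, with a median of 0.97. In untreated mice the same fit called 0 replication genes in either direction, 0 mitosis genes higher and 1 lower, and 1 repair gene higher and 0 lower, with background shares of 7.51% higher and 6.87% lower over all genes. After irradiation it called 0 replication genes, 0 mitosis genes higher and 6 lower, and 1 repair gene higher, against 7.53% higher and 8.23% lower. The difference between these gaps has its own test, given with the untreated and irradiated comparisons.

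Cdc6, a loader of the replicative helicase, read 6.65 and 6.27 in CD24lo and 8.14 and 8.59 in CD24hi cells (1.91 ± 0.36, adjusted p = 1.17e-03). Mcm5, a subunit of that helicase, read 9.21 and 9.28 against 11.11 and 11.07 (1.84 ± 0.33, adjusted p = 7.3e-04). Prim1, the primase, differed by 1.83 ± 0.29 and Mcm4 by 1.76 ± 0.26. Each of these had both CD24hi arrays above both CD24lo arrays by more than 1 log2 unit. Among mitosis genes Bub1b, a kinase of the spindle checkpoint, read 7.99 and 8.02 in CD24lo and 9.64 and 9.68 in CD24hi cells (1.65 ± 0.28, adjusted p = 5.08e-04). Its partner Bub1 differed by 1.60 ± 0.29, the chromosome passenger kinase Aurkb by 1.48 ± 0.21 and Top2a, the topoisomerase II that doxorubicin traps on DNA, by 1.48 ± 0.27. Mki67, the proliferation antigen, read 10.65 and 11.06 in CD24lo and 12.01 and 11.95 in CD24hi cells (1.12 ± 0.31, adjusted p = 0.0125), a call lost in 3 of the 4 fits that left out an array. Among repair genes the nuclease Exo1 differed by 1.91 ± 0.34 and Fancd2, of the crosslink repair pathway, by 1.58 ± 0.42. Fancd2 also lost its call in 3 of the 4 fits that left out an array. Without 1 array the mitosis count of 18 became 9 and 11 (without CD24lo replicates 1 and 2) and 8 and 10 (without CD24hi replicates 1 and 2). The repair count became 9 without CD24lo replicate 2 and 8 without CD24hi replicate 1, and the replication count stayed between 14 and 17.

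The mean level of the replication genes was 8.90 and 8.69 on the CD24lo doxorubicin arrays, below the 9.82 and 10.26 of untreated CD24lo cells, and 10.10 and 10.22 on the CD24hi doxorubicin arrays, near the 10.37 and 10.29 of untreated CD24hi cells. The mean of the mitosis genes was 9.65 and 9.71 in CD24lo and 10.73 and 10.70 in CD24hi cells after doxorubicin, against 10.61 and 10.83 in untreated CD24lo and 10.44 and 10.35 in untreated CD24hi cells. The CD24lo arrays were thus the lower pair after doxorubicin in both groups, and the CD24hi pair was slightly below its untreated pair for replication and slightly above it for mitosis. In bulk samples, fewer cells of a type and less RNA per cell cannot be told apart, and this holds for each gene group described.

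**Figure D3:**
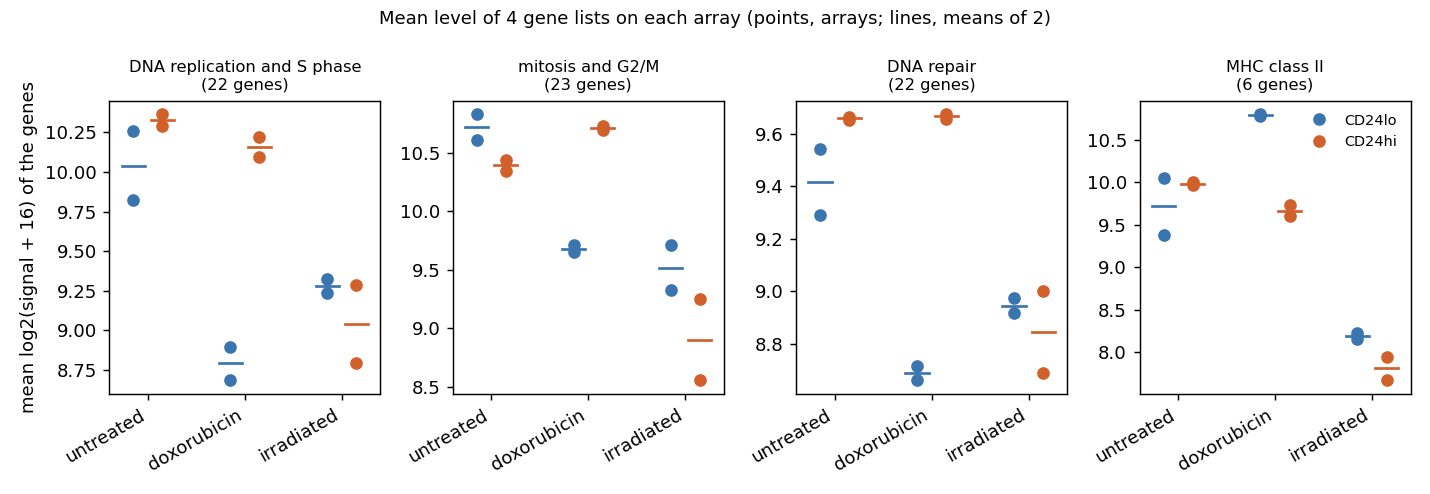
Mean log2(signal + 16) of the tested genes of 4 lists (y axis) on each array, for untreated, doxorubicin and irradiated mice (x axis); points are arrays, blue for CD24lo and orange for CD24hi, and lines are means of 2. After doxorubicin the replication, mitosis and repair means are lower in CD24lo than in CD24hi cells, and the MHC class II mean is higher in CD24lo cells (10.79 and 10.81) than in CD24hi cells (9.73 and 9.60).

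Promoters are shown for the cell cycle and interferon genes, whose members mostly differed in the same direction, as did members of some groups not shown. Windows of 300 bases, from 250 before to 50 after the annotated start, come from RefSeq on GRCm38.p6 and were matched by symbol. The E2F motif, a site of the factors that switch on S phase genes, was searched on both strands as TTTCGCGC or TTTGGCGC. It was found in 7 of 20 windows of the replication genes (35.0%, 18 of 22 genes matched) and in 0.81% of all 32851 windows. The cell cycle homology region, which late cell cycle genes use, was searched as TTTGAA on both strands. It was found in 16 of 20 windows of the mitosis genes (80.0%, 19 of 23 genes matched) and in 17.89% of all windows. The interferon-stimulated response element was searched as GAAA, any 2 bases and GAAA on both strands and found in 9 of 16 windows of the type I interferon genes (56.2%, 14 of 20 genes matched) and in 3.44% of all windows. These are 3 of 7 pairs of list and motif that were searched, and were chosen for display after the shares were seen. Of the other 4 pairs, CCAAT was found in 90.0% of the mitosis windows against 37.41% of all windows. CAGCTG, an E-box, was found in 6.7% of the crypt base stem cell windows and 11.1% of the windows of the other Paneth genes, against 16.3% of all windows. An HNF4 motif was found in 11.8% of the enterocyte digestive windows (2 of 17) against 0.47%. Shown are the 2 members per motif with the largest difference among those that passed the test in their group's direction and held a match. The matches are in capitals and may overlap; a match describes letters and is not a measured site. Mcm5 lies at chr8:75109259-75109558 on the plus strand, Mcm7 at chr5:138171834-138172133 on the minus strand, Bub1b at chr2:118597961-118598260 on the plus strand, Top2a at chr11:99024140-99024439 on the minus strand, Oas3 at chr5:120777610-120777909 on the minus strand and Ifit3 at chr19:34583279-34583578 on the plus strand, and all are written 5′ to 3′ along the gene.
Mcm5: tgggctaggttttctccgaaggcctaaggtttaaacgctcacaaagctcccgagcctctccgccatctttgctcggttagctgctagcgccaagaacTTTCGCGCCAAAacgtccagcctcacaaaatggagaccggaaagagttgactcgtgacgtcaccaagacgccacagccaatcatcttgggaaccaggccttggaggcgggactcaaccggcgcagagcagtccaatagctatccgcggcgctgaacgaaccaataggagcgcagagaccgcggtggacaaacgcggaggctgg
Mcm7: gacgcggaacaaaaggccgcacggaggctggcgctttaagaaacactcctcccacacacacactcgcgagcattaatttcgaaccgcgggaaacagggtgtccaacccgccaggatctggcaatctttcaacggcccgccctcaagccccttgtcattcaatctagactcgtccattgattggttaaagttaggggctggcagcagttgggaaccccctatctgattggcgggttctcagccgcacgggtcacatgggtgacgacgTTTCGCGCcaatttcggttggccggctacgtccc
Bub1b: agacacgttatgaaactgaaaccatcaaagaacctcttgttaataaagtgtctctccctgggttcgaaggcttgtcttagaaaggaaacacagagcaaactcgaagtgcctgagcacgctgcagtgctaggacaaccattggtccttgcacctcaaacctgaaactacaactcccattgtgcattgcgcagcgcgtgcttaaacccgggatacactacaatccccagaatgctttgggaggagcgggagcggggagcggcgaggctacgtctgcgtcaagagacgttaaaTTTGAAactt
Top2a: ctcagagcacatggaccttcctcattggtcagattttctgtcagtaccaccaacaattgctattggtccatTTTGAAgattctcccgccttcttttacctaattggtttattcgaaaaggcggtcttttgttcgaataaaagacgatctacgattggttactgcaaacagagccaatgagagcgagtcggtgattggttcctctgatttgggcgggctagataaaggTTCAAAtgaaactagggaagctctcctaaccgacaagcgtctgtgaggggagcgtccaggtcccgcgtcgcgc
Oas3: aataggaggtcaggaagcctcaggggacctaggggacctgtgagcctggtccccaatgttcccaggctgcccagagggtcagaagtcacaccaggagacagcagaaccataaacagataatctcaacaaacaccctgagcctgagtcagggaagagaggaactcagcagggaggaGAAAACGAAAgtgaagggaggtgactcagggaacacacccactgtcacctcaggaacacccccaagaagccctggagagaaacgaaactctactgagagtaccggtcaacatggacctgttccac
Ifit3: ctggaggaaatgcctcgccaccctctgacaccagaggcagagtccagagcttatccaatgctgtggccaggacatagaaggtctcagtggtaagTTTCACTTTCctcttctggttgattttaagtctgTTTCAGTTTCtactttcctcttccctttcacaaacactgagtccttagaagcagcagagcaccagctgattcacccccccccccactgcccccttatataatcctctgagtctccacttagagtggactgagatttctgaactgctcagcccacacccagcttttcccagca

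Among p53 targets, 8 of 20 arrest and feedback genes were higher in CD24hi cells and 1 lower, with a median of 0.39. Untreated cells had 3 of them called higher and 1 lower (median 0.33), and irradiated cells 1 and 2 (median 0.13). In the tests of a difference between gaps, 0 of the 20 passed against untreated mice and 1 against irradiation. For Trp53inp1 the gap after doxorubicin minus the untreated gap was -0.33. Trp53inp1, a p53 cofactor, read 11.40 and 11.23 in CD24lo and 13.08 and 13.10 in CD24hi cells (1.78 ± 0.33, adjusted p = 1.09e-03), and Ppm1d, a phosphatase that switches p53 off, was higher by 1.20 ± 0.26. Gadd45a, an arrest gene, read 10.71 and 10.98 against 9.15 and 9.12 (-1.71 ± 0.35, adjusted p = 1.87e-03). Cdkn1a, the best known of the group, overlapped between the fractions at 12.41 and 12.63 in CD24lo and 12.62 and 12.36 in CD24hi cells. Of 12 death genes 2 were higher, the nuclease Aen (1.50 ± 0.23) and the mitotic protein Ckap2 (1.45 ± 0.31), and 1 was lower, the inflammatory caspase Casp1 (-1.46 ± 0.31), shares near the 17.4% higher and 10.9% lower among all genes. The arrest count of 8 became 5 without CD24lo replicate 1, 4 without any other of the arrays, and 5 higher and 2 lower with arrays centred on the 75th percentile.

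The unfolded protein and immediate early genes that passed the test were all higher in CD24hi cells. Of 24 genes of the unfolded protein response, which expands the secretory apparatus, 9 were higher and 0 lower, with a median of 0.46. Among all genes 17.4% were higher. Untreated cells had 4 of the 24 called higher and irradiated cells 5, with 0 lower in both. The asparagine synthetase Asns differed by 1.18 ± 0.18, the stress sensor Ern1 by 0.97 ± 0.17 and the stress factor Atf3 by 0.92 ± 0.21. Immediate early genes, which sense acute signals and cell handling, had 8 of 17 members higher and 0 lower. Untreated cells had 5 of the 17 called higher and irradiated cells 4, with 0 lower in both. In either list 0 members passed the test of a difference between gaps, against untreated or irradiated mice. Nr4a1, an orphan nuclear receptor, read 8.13 and 8.17 in CD24lo and 11.11 and 10.80 in CD24hi cells (2.80 ± 0.37, adjusted p = 7.27e-05), and the zinc finger factors Egr3 and Egr2 differed by 2.27 ± 0.52 and 1.70 ± 0.27. The unfolded protein count was 4 without CD24lo replicate 1 or CD24hi replicate 2 and 5 without CD24hi replicate 1, and the immediate early count was 5 without CD24lo replicate 1 or CD24hi replicate 1.

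Interferon and antigen presentation genes were lower in CD24hi cells. Among all genes 10.9% were lower and 17.4% higher. Of 20 type I interferon genes 11 were lower and 1 higher, with a median of -1.06. The split was also present without doxorubicin. In untreated mice 13 were called lower and 1 higher (median -1.24), and after irradiation 15 and 1 (median -1.86). Oas3, an antiviral RNA sensor, read 7.57 and 7.83 in CD24lo and 4.45 and 5.51 in CD24hi cells (-2.72 ± 0.55, adjusted p = 1.9e-03), Ifit3 was lower at -2.55 ± 0.51 and Ifit1 at -2.21 ± 0.45. The exception was Ifitm3, a membrane antiviral protein, at 9.52 and 10.05 against 12.16 and 12.11 (2.35 ± 0.27, adjusted p = 1.73e-05). Of 18 interferon gamma genes 8 were lower and 1 higher. In untreated mice 7 were called lower and 0 higher, and after irradiation 9 and 0. Ido1, the tryptophan-degrading enzyme, read 12.89 and 12.92 in CD24lo and 8.22 and 8.41 in CD24hi cells (-4.59 ± 0.43, adjusted p = 3.79e-06) or 24.0-fold lower. Psmb8, an immunoproteasome subunit, was lower at -1.18 ± 0.18, and Cxcl9, a T cell attractant, was higher by 1.74 ± 0.47. Cxcl9 lost its call in 3 of the 4 fits that left out an array. The type I count of 11 was 6 without CD24lo replicate 2 and 7 without CD24hi replicate 1, and the interferon gamma count of 8 was 5 without CD24lo replicate 1 or CD24hi replicate 1 and 4 without CD24hi replicate 2.

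All 6 tested MHC class II genes (8 listed), which present antigen to helper T cells, were lower in CD24hi cells, with a median of -1.23. Of all genes 10.9% passed as lower. H2-Aa, the α chain of I-A, read 11.95 and 12.01 in CD24lo and 10.59 and 10.67 in CD24hi cells (-1.35 ± 0.33, adjusted p = 6.78e-03), Cd74, the invariant chain, differed by -1.29 ± 0.30, H2-DMa, of the peptide loader, by -1.27 ± 0.26 and H2-Ab1, the β chain, by -1.19 ± 0.24. The mean of the 6 was 10.79 and 10.81 in CD24lo and 9.73 and 9.60 in CD24hi cells, and none of the 6 had overlapping fractions, as was so for 74.3% of all genes (30.9% lower in CD24hi cells). In untreated mice the same fit called 0 of the 6 in either direction, with a median of 0.38. Without CD24hi replicate 2 the count was 3.

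Of 12 tested transcripts of T cells and intraepithelial lymphocytes (20 listed) 0 passed the test in either direction, with a median of -0.79; 11 were lower in value and Cd247 higher (0.55). The list's mean level was 8.48 and 8.41 in CD24lo and 7.81 and 7.62 in CD24hi cells after doxorubicin, and 5.76 to 6.93 on the 8 untreated and irradiated arrays. Cd3e, a subunit of the T cell receptor complex, read 7.97 and 8.33 in CD24lo and 7.27 and 6.95 in CD24hi cells (-1.04, adjusted p = 0.23), and Gzma, a granzyme, 10.36 and 10.39 against 9.55 and 9.13. All 4 doxorubicin arrays therefore had a higher mean level of these transcripts than the untreated and irradiated arrays, and the part of lymphocyte RNA in the interferon and MHC class II differences was not tested. Among markers of other cells, 2 of 8 B and plasma cell genes were higher (Pou2af1, 2.25 ± 0.63, and Derl3, 1.89 ± 0.56), 2 of 6 macrophage genes (Cd68, 1.07 ± 0.32, and Lyz2), 1 of 3 neutrophil and mast cell genes (Kit, 1.87 ± 0.35), 1 of 4 endothelial genes (Esam, 1.71 ± 0.38), and 0 of 2 fibroblast, 0 of 2 neuron and glia and 0 of 1 erythroid genes, with 0 lower in any of these lists. The B and plasma cell, macrophage and endothelial counts each fell to 0 in at least 1 fit that left out an array. Derl3 and Kit are also expressed in secretory epithelium. Of 13 epithelial genes common to both fractions 4 were lower, against 10.9% of all genes, with the largest difference for Krt20, a keratin of mature cells (-2.19 ± 0.21). That count fell to 1 without CD24lo replicate 2 and to 2 without CD24hi replicate 2.

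Among other signalling and identity groups, BMP pathway genes had 1 of 8 members higher and 5 lower. These counts were the same in untreated and in irradiated mice. Bambi, a decoy BMP receptor on chromosome 18, read 7.36 and 6.82 in CD24lo and 12.11 and 11.99 in CD24hi cells (4.96 ± 0.30, adjusted p = 6.1e-08). The direct BMP targets Id4 (-1.43 ± 0.31), Id3 (-1.21 ± 0.33) and Id2 (-1.16 ± 0.37) were lower; the count of 5 fell to between 1 and 3 without 1 array, lowest without CD24hi replicate 1, to 2 without either CD24lo array and to 3 without CD24hi replicate 2. Of 13 Notch pathway genes 2 were higher, the receptors Notch2 (1.06 ± 0.31) and Notch1 (0.95 ± 0.30), a share below the 17.4% of all genes, and both calls were lost in the 3 fits without CD24lo replicate 2, CD24hi replicate 1 or CD24hi replicate 2. Identity factors had 1 of 12 higher, Prox1 (1.70 ± 0.34), and 3 lower, Hnf4g (-1.66 ± 0.41), Isx (-1.45 ± 0.22) and Nr5a2 (-1.17 ± 0.30), which govern absorptive or metabolic genes. Reg family lectins had 4 of 6 lower, among them Reg3a (-3.13 ± 0.47) and Reg1 (-2.04 ± 0.74), and 1 higher, Reg4 (1.63 ± 0.32); the count of 4 was 2 without any 1 of the 4 arrays. Claudins, the tight junction strands, had 2 of 9 higher, Cldn2 (1.53 ± 0.22) and Cldn4 (1.33 ± 0.24), and 2 lower, Cldn23 (-1.10 ± 0.20) and Cldn15 (-0.91 ± 0.21). Of all genes 17.4% were higher and 10.9% lower. Repair and YAP-linked genes had 2 of 8 higher, Il1rn (2.09 ± 0.75) and Ccn1 (1.61 ± 0.30), and 3 lower, led by Il33 and Anxa3 (-2.28 ± 0.28). Il1rn lost its call in all 4 fits that left out an array (adjusted p up to 0.294), and the lower count fell to 2 without CD24lo replicate 1 and to 1 without CD24hi replicate 2.

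Among genes that passed and had separated arrays, the largest differences lay mostly outside the lists. None of the genes named in this ranking passed the test of a difference from the untreated gap. Samd5 read 6.49 and 4.31 in CD24lo and 11.42 and 11.49 in CD24hi cells (6.06 ± 0.77, adjusted p = 5.4e-05), with CD24lo replicates more than 2 log2 units apart at a dim level. A further Samd5 probe set that passed the signal filter gave only 1.79. Smim38 (5.56 ± 0.50), the monocarboxylate transporter Slc16a7 (5.01 ± 0.34), Bambi, Sntb1, a syntrophin (4.90 ± 0.43), the adhesion protein Cadm3 (4.87 ± 0.62), Pla2g2f, a secreted phospholipase (4.77 ± 0.43), and Tent5c, a poly(A) polymerase (4.74 ± 0.44), followed. On the lower side stood Ido1, then Afp, α-fetoprotein, at 10.33 and 10.13 in CD24lo and 6.51 and 6.49 in CD24hi cells (-3.73 ± 1.30, adjusted p = 0.0409). The next were Fam3b (-3.37 ± 0.33), Gdpd2, a phosphodiesterase (-3.33 ± 0.76), Adh4, an alcohol dehydrogenase (-3.33 ± 0.95), the proton channel Otop3 (-3.25 ± 0.95), the sulfate transporter Slc13a1 (-3.24 ± 0.51) and Cd36. The SE comes from the spread within all 10 groups and was wide for Afp, Adh4 and Otop3, each of which lost its call without any 1 of the 4 arrays.

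Whether the gap between fractions after doxorubicin differed from that in untreated mice was tested as a difference of differences over 8 arrays. Of 11854 genes 4 passed (0.0337%), 4 higher and 0 lower, while 1252 genes had an unadjusted p under 0.05 by limma. Mmp7 had a gap larger by 2.32 ± 0.36 (adjusted p = 0.0337); it read 13.31 and 13.66 in untreated CD24lo and 14.01 and 14.39 in untreated CD24hi cells, so the CD24lo level was the one that stood lower after doxorubicin. Defa39, an α-defensin with near-identical relatives, had a gap larger by 2.24 ± 0.38 (adjusted p = 0.0497), at 10.94 and 11.005 in CD24lo and 13.81 on both CD24hi arrays after doxorubicin against 13.55, 13.42, 13.98 and 14.18 in untreated cells. Stil, a centriole assembly protein, had a gap larger by 2.13 ± 0.34 (adjusted p = 0.0405), at 7.32 and 7.37 in CD24lo and 8.97 and 8.80 in CD24hi cells after doxorubicin.

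Clca1, a goblet cell secretory protein, differed in the other fraction. It read 14.09 and 14.28 in CD24lo and 13.92 and 13.75 in CD24hi cells after doxorubicin, and 14.03 and 14.29 in CD24lo but 11.96 and 11.88 in CD24hi cells without treatment, so its gap was -0.35 after doxorubicin and -2.24 without it, and the difference of gaps was 1.89 ± 0.25 (adjusted p = 0.012). A further, dimmer Clca1 probe set gave a similar difference of gaps, 2.00. Its gap after doxorubicin was -2.26, so there the CD24hi level stayed clearly lower. None of the 12 fixed genes passed the test against untreated mice. Olfm4 came nearest of the 3 given here, with 2.41 ± 0.43 (adjusted p = 0.0516). Mki67 came to 1.29 ± 0.44 (adjusted p = 0.3) and Lgr5 to 1.71 ± 0.80 (adjusted p = 0.467). The further Lgr5 probe set gave -0.73, the opposite sign. In the mitosis, replication and MHC class II lists 0 members passed, with medians of 1.39, 1.16 and -1.42 against 0.06 for all genes. Calls after doxorubicin and none without it are therefore not shown to differ for these genes. Each of the 4 calls was lost in at least 6 of the 8 fits that left out an array, and the total ranged from 0 to 8.

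**Figure D4:**
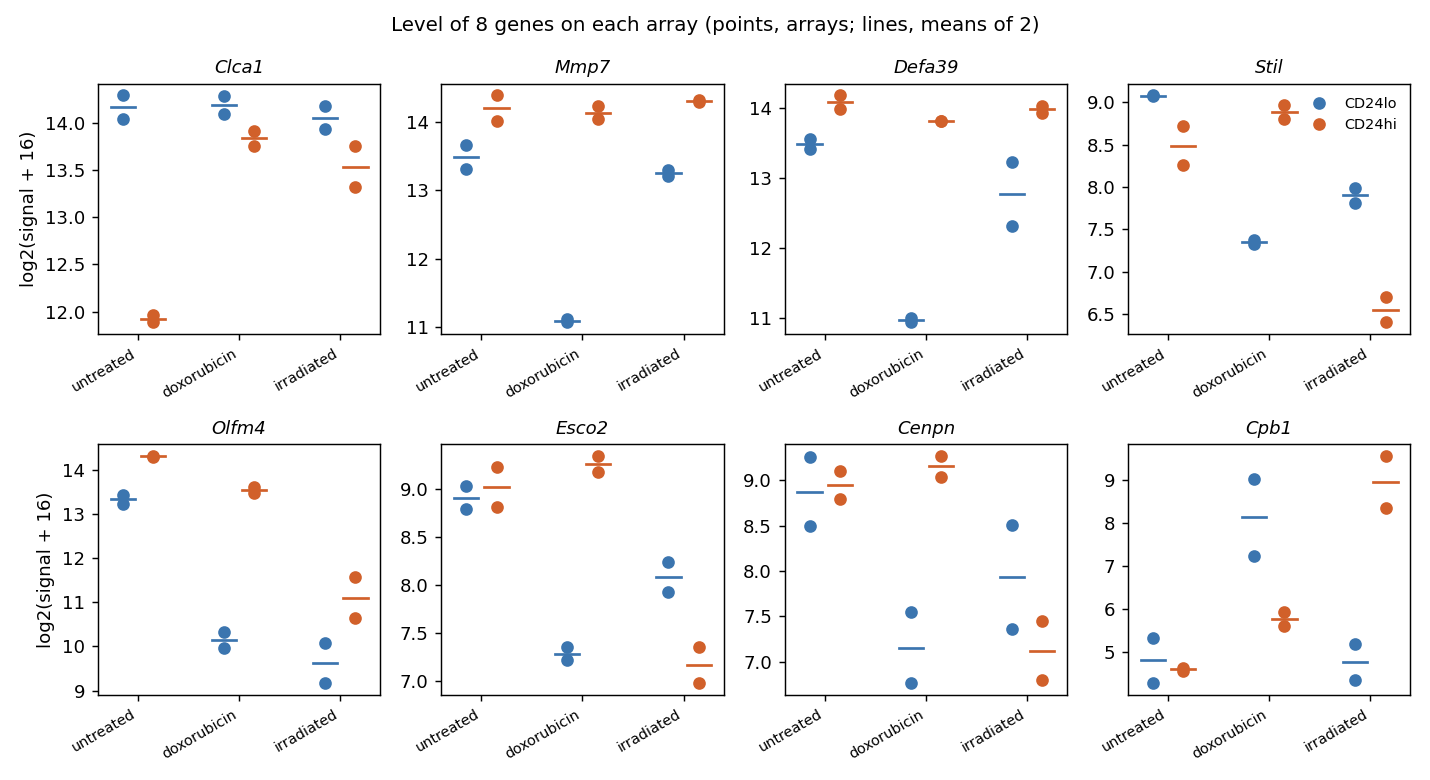
Levels of 8 genes, as log2(signal + 16) on the y axis of each panel, in untreated, doxorubicin and irradiated mice (x axis); points are arrays, blue for CD24lo and orange for CD24hi, and lines are means of 2. Mmp7 and Defa39 are lowest in the CD24lo doxorubicin pair, Clca1 is lowest in the untreated CD24hi pair, and Cpb1 is high in CD24lo cells after doxorubicin and in CD24hi cells after irradiation.

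Against irradiation, the other DNA-damaging treatment of the series, 118 genes had a different gap (0.995%), 108 higher (0.911%) and 10 lower (0.0844%); 108 of the 118 also passed in the doxorubicin gap itself, and for 104 the 2 gaps had opposite signs. Cell cycle genes led the higher side. In the mitosis list 11 of 23 members passed, 0 lower, with a median of 1.67; in the replication list 9 of 22 with a median of 1.75; and in the repair list 6 of 22, a count that ran from 0 to 7 without 1 of the 8 arrays. Examples are Hmmr, a spindle protein (2.58), Bub1b (2.14), Cdc6 (2.56) and Mcm5 (2.31). The mean of the mitosis genes was 9.71 and 9.33 in irradiated CD24lo and 8.56 and 9.25 in irradiated CD24hi cells, so here the CD24hi arrays were both below the CD24lo arrays, the reverse of doxorubicin.

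Among genes that passed, the 6 with the largest higher differences were Cd14, an endotoxin co-receptor on chromosome 18 (2.98 ± 0.47, adjusted p = 7.65e-03), Stil (2.89 ± 0.34), Esco2, a cohesin acetyltransferase (2.89 ± 0.38), the kinetochore genes Nsl1 (2.82 ± 0.55) and Cenpn (2.81 ± 0.52), and the centriolar gene Cep128 (2.79 ± 0.56). A further probe set of Nsl1 that passed the signal filter gave -0.93, the opposite sign. Further ones of Cep128 gave 1.16, 0.61 and 0.81, and that of Cenpn gave 2.08. Esco2 read 7.22 and 7.36 in CD24lo and 9.17 and 9.35 in CD24hi cells after doxorubicin, and 8.25 and 7.93 against 6.98 and 7.36 after irradiation. Of the 12 fixed genes Olfm4 alone passed this test (1.91 ± 0.43, adjusted p = 0.045), and Mki67 came to 1.66 ± 0.44 (adjusted p = 0.0963). Stem cell genes had 3 of 17 members past the threshold, Olfm4, the chloride transporter Slc12a2 (1.11) and the water channel Aqp4 (2.11). That count was 0 to 2 in every fit that left out 1 of the 8 arrays, and Olfm4 lost its call in 6 of them. Leaving out 1 of the 8 arrays gave totals from 7 to 191, the mitosis count from 0 (without CD24hi irradiated replicate 1) to 20 (without CD24hi irradiated replicate 2) and the replication count from 0 (without that first array or either CD24hi doxorubicin array) to 12 (without that second array); the cause was not tested.

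Among genes that passed, those with the 6 largest lower differences were 2210010C04Rik and 5 digestive enzymes of the exocrine pancreas. Their differences were Cpb1 (-6.56 ± 0.90), 2210010C04Rik (-6.20 ± 1.06), Cel (-4.97 ± 0.93), Cela2a (-4.88 ± 0.93), Ctrb1 (-4.38 ± 0.95) and Cpa1 (-4.23 ± 0.90). Cpb1, a carboxypeptidase, read 9.02 and 7.23 in CD24lo and 5.604 and 5.92 in CD24hi cells after doxorubicin, and 5.18 and 4.34 in CD24lo and 9.56 and 8.35 in CD24hi cells after irradiation. Over 10 tested pancreatic enzyme genes, a list chosen after these values were seen, the mean level was 8.69 and 7.04 on the CD24lo and 6.82 and 6.78 on the CD24hi doxorubicin arrays, 9.15 and 8.02 on the irradiated CD24hi arrays, and 5.43 to 6.95 on the other 14 arrays. The CD24lo replicates after doxorubicin thus differed from each other in these genes, and the part of pancreatic RNA in the result was not tested.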

How the data were processed

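Per the labels, total RNA of the sorted cells (0.8 ng) was amplified, labelled with biotin and hybridised to a 1-colour array. The authors deposited linear signal intensity values per probe set, made with MAS5 per the submitters' processing notes; each array has a 2% trimmed mean of 500, so scaling had been done. The genome build and software version are not given in the sources used here. From these intensities log2(signal + 16) was computed with no further normalization. Of 45101 probe sets 34958 have 1 gene symbol in the platform annotation, 932 several and 9211 none; only the first were used. Probe sets above the array median on at least 2 of the 20 sorted arrays were kept (22531), and of each gene the one with the highest mean, giving 11854 of 18194 genes. A fit with limma 3.58.1 in R 4.3.3 gave each of the 10 groups a mean (10 residual degrees of freedom, moderated variance with a trend, two-sided tests, Benjamini-Hochberg over all genes, threshold 0.05), and the number of arrays limits precision. The 3 contrasts tested were the doxorubicin gap, and that gap minus the untreated and minus the irradiated gap, which share the doxorubicin arrays. The steps were tested on simulated data.

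The members and the 40 gene lists (624 genes, 565 on the array, 481 tested) were chosen with earlier results of these data known. Named are 12 fixed genes, from each list at most 4 called members, taken by size of difference, the 8 most strongly higher and 8 most strongly lower genes with separated arrays, and for each difference of gaps up to 6 genes in each direction; members named outside this rule are given as further or uncalled members of a list. Of the fixed genes, 3 (against untreated) and 2 (against irradiation), chosen after their values were seen, are described in the differences of gaps, and alternatives were computed for all 12. Replicate numbers are shared between the fractions, and same-numbered arrays deviated together in some conditions (correlations of deviations of 0.344 untreated and 0.385 Lgr5-ablated) but not in the others (0.068 irradiated, -0.149 NICD, -0.097 doxorubicin). The numbers were therefore not taken to pair arrays throughout, and the block is an alternative. No 2 arrays held identical values. Alternatives are the pseudocount, scaling, filter, probe set summary, variance model, replicate block, arrays fitted and each array left out.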

Additional observations from a re-analysis of the deposited data

Results flagged for a closer look

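The gap between CD24hi and CD24lo cells after doxorubicin differed from another condition's gap at the genes below, by the test of the difference itself, on the log2(signal + 16) scale. Against untreated mice these were Mmp7 (2.32), Defa39 (2.24), Stil (2.13) and Clca1 (1.89). Against irradiated mice they were, on the higher side, Cd14 (2.98), Stil (2.89), Esco2 (2.89), Nsl1 (2.82, but -0.93 from a further probe set), Cenpn (2.81), Cep128 (2.79) and Olfm4 (1.91), and on the lower side Cpb1 (-6.56), 2210010C04Rik (-6.2), Cel (-4.97), Cela2a (-4.88), Ctrb1 (-4.38) and Cpa1 (-4.23). Of these, 0 of the 4 against untreated mice and 3 of the 13 against irradiated mice, Stil, Esco2 and Cpb1, kept their call in all 8 fits that left out an array.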

How the results depend on the processing

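The doxorubicin gap gave 3125 to 3653 calls under 11 alternatives (pseudocounts 1 and 64, quantile normalization, 75th percentile centring, no and a stricter filter, mean of probe sets, no variance trend, robust moderation, replicate block, without the NICD arrays), and 5588 (3304 higher, 2284 lower) when only its own 4 arrays were fitted. Without 1 array it gave 1726 to 2022 (1047 to 1252 higher, 671 to 770 lower); no shared call changed sign, and 94 of the 139 called genes that the naming rule covers kept their call in all 4 fits. Sign changes were seen for Cdkn1a (0.12 after quantile normalization, 0.083 with the mean of probe sets, -0.16 to 0.10 without 1 array) and Atoh1 (-0.10 after 75th percentile centring, -0.0315 to 0.042 without 1 array), both short of the threshold. The same was seen, also short of the threshold, in the differences of gaps of 9 of the 12 fixed genes. Against the untreated gap these were Cd24a (0.0145 after quantile normalization, 0.0466 with the mean of probe sets, -0.14 to 0.078 without 1 array), Dclk1 (0.35 after quantile normalization, -0.70 to 0.65), Muc2 (-0.0164 after 75th percentile centring, -0.22 to 0.24), Atoh1 (-0.0204 to 0.18), Chga (-0.36 to 0.197) and Hes1 (-0.14 to 0.45). Against the irradiated gap they were Lgr5 (0.0163 with pseudocount 1, -1.30 to 0.96), Muc2 (0.12 after quantile normalization, -0.29 to 0.137), Bhlha15 (-0.132 with the mean of probe sets, -0.19 to 0.67), Atoh1 (-0.0329 to 0.45), Cdkn1a (-0.0758 to 0.41), Chga (-0.0302 to 1.11) and Hes1 (-0.19 to 0.71). The gap minus the untreated gap, with 4 calls, gave 10 with either pseudocount, 7 after quantile normalization, 1 after 75th percentile centring, 1 with no filter, 9 with the stricter filter, 10 with the mean of probe sets, 9 with robust moderation, 1 with the replicate block, all higher, 64 with only the 8 arrays fitted (57 higher, 7 lower), and 0 to 8 without 1 array (0 to 7 higher, 0 to 1 lower). The gap minus the irradiated gap, with 118, gave 74 (66 higher) with no filter, 74 (64 higher) with no variance trend, 5 lower with the stricter filter, 260 (199 higher, 61 lower) with only the 8 arrays fitted, and 7 to 191 without 1 array (6 to 181 higher, 1 to 10 lower). Fits on the compared arrays alone and those without 1 array use fewer samples by construction, and beyond this the cause was not tested. The replicate block left 3252 calls in the doxorubicin gap and 92 against irradiation. Array number and dim signals near the added 16 limit all of these, and list counts of 1 or 2 often fell to 0 without 1 array.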
